A study of Homo sapiens with 8 samples.

Results

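Nonsense-mediated decay is the surveillance pathway that degrades mRNAs whose stop codon lies where the cell reads it as premature, commonly upstream of an exon junction complex. The pathway is triggered by a terminating ribosome and the helicase UPF1, so a ribosome that reads through the stop codon, or a block in the pathway, can spare the mRNA. Amber suppression is a designed form of readthrough: a pyrrolysyl-tRNA charged with an unnatural amino acid decodes the UAG stop codon as sense, and ribosomes then continue to the next stop codon in frame.

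The transcripts described here are annotated as decay targets and were translated at a measurable level. They carried few ribosome footprints in the first stretch past their stop codon in HEK293T cells. Of 82586 transcripts and transgenes listed, 17577 carried the decay annotation, and 2522 of these had a mean coding density of at least 10 RPKM (reads scaled to the length of the region and the depth of the library) over the 8 libraries. The 1061 members are those 2522 transcripts whose first extended region, listed after the annotated coding region and taken here as the stretch up to the next stop codon in frame, had a mean density under 10% of the coding density over the 4 HEK293T libraries. The choice therefore used the HEK293T extended values, which are given below as a description only, and all 8 coding values with equal weight. The files do not pair transcript identifiers with gene names or stop codons, so transcripts are named by identifier, and which members end in UAG was not analysed here.

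Ribosome profiling sequences the mRNA fragments protected by ribosomes. It was applied to HEK293T cells, a human embryonic kidney line, and to transgenic cells, HEK293T cells into which a Mb pyltRNA (a pyrrolysyl-tRNA) had been stably introduced. Each line was grown without NAEK or with 1 mM NAEK, the unnatural amino acid, giving 4 groups of 2 libraries. The labels name only the tRNA, but the tables also list a synthetase and a GFP39 reporter, and the labels do not say whether the transgenic cells are 1 clone or whether replicates came from separate cultures, and p-values here measure just the spread among these libraries, which may be technical.

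The libraries held 12923243 to 20569590 reads, fewest in transgenic +NAEK replicate 2. Of reads summed over all listed transcripts, coding regions held 89.0% to 89.1% and first extended regions 1.29% to 1.48%. Synthetase coding density lay at 5538 to 5820 RPKM in the 4 transgenic libraries and at 7.24 to 11.4 RPKM in the HEK293T libraries, so each library matched its line. The extended region of GFP39 rose from 142 and 129 RPKM without NAEK to 1312 and 1333 RPKM with NAEK in transgenic cells.

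Members were short and thinly covered. Their coding density had a median of 22.3 RPKM (range 10.01 to 1294, quartiles 14.2 to 48.0), and their coding length a median of 294 nt. The 10063 protein-coding transcripts chosen by the same density rules, used for comparison, had a median coding length of 786 nt. In 446 members (42.0%) the first extended region had no read in any of the 8 libraries, 441 had 1 to 9 reads in all, and 174 had 10 or more. Among the 615 members with a read there, the region had a median length of 63 nt (quartiles 33 to 132). A density of 10% of coding would have given at least 3 reads in each transgenic library for 256 members (24.1%), against 3738 (37.1%) of the protein-coding transcripts. The length of the region could be recovered only where it had a read. The 446 members without one, and 2255 such protein-coding transcripts, were therefore counted as failing. Whether an opening to 10% would have been detectable in those 446 members is not known. For the remaining members that failed, it was not reliably detectable at this depth.

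The threshold itself cut through very small counts. The 3 members just under it had HEK293T densities of 9.87%, 9.91% and 9.96% of coding, from 33, 7 and 1 extended reads over 8 libraries. The 3 decay-target transcripts just over it stood at 10.02%, 10.03% and 10.2%, from 9, 17 and 11 reads. In transgenic cells the same 6 transcripts lay at 6.65%, 4.60% and 0% inside and at 2.91%, 17.8% and 14.6% outside.

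Some members had nearly the same coding values. No 2 members had identical coding values, but grouping those of equal coding length whose reads differed by no more than sampling noise gave 781 groups. Of these, 144 groups held several members each, 424 members in all, and the largest held 13. The counts below take every member separately, although members of 1 group may not be independent. With only the first member of each group kept, 8 opened in place of the 10 described next, and the median coding change given below was 0.0011 in place of 0.0131.

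The first question was how many members opened with NAEK in transgenic cells, that is, had a first extended density under 10% of coding in both -NAEK libraries and at 10% or more in both +NAEK libraries. Of the 1061 members, 10 (0.943%) did so and 4 (0.377%) did the opposite. Leaving out a library loosens the rule, most for the count that needs 10% or more in the group it came from. Without transgenic +NAEK replicate 1, 50 opened and 7 closed, and without +NAEK replicate 2, 45 and 13. Without -NAEK replicate 1, 15 opened and 35 closed, and without -NAEK replicate 2, 14 and 28. The balance thus shifted with the group that lost a library, and these counts do not single out 1 library. Over all 11124 decay-target and protein-coding transcripts chosen by the same density rules, 2.81% opened and 0.557% closed. Among the protein-coding transcripts alone 303 (3.01%) opened and 58 (0.576%) closed. The members' share of openings thus lay below that of the protein-coding transcripts. The members' coding regions were also shorter and their read counts smaller, and the part of this in the gap was not tested.

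The count was repeated where 10% of coding meant at least 3 reads in each transgenic library. All these transcripts had at least 1 first extended read over the 8 libraries, so they were chosen partly on the values counted. There 5 of 256 members (1.95%) opened and 1 closed, against 130 (3.48%) and 4 of 3738 protein-coding transcripts. In the HEK293T libraries, whose values the rule used, 1 member opened and 5 closed. When transcripts were instead chosen on low transgenic ratios and counted in HEK293T cells, 6 of 1064 decay-target transcripts opened and 10 closed, so openings did not outnumber closings in cells without the tRNA.

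Counted library by library, members at 10% or more numbered 62 and 69 in the transgenic -NAEK libraries and 73 and 87 in the +NAEK libraries. Both +NAEK libraries were higher, at 80.0 ± 9.90 (SD, n = 2) against 65.5 ± 4.95, and an exact two-sided permutation test gave p = 0.33, the smallest that 2 libraries against 2 allow. In HEK293T cells the counts were 43 and 46 without NAEK and 39 and 56 with it, and the groups overlapped. Among the protein-coding transcripts the share at 10% or more went from 5.52% ± 0.218 to 9.73% ± 0.330 in transgenic cells (n = 2 each), a gap of 4.21 percentage points against 1.37 in members. The members' share minus the protein-coding share was 0.653 ± 0.249 percentage points without NAEK and -2.19 ± 0.603 with it (n = 2; exact permutation p = 0.33), and these did not overlap.

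**Figure D1:**
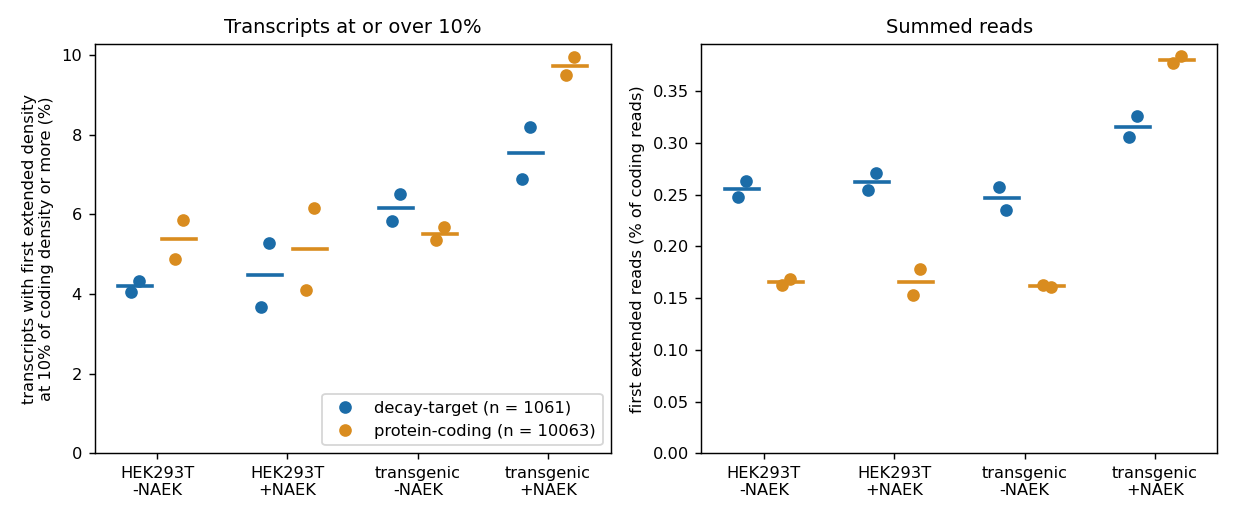
Left, percent of transcripts whose first extended density was 10% or more of coding density; right, first extended reads as a percent of coding reads. Points are the 2 libraries of each group and bars their means, for the 1061 members and 10063 protein-coding transcripts; members in transgenic cells move from 0.246% to 0.316% with NAEK and protein-coding transcripts from 0.162% to 0.380%.

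Summing reads over members avoids the threshold. First extended reads made up 0.257% and 0.235% of the members' coding reads in the transgenic -NAEK libraries and 0.306% and 0.325% in the +NAEK libraries. The groups did not overlap, and the means stood at 0.246% ± 0.0159 and 0.316% ± 0.0138 (n = 2), a 1.28-fold difference with an exact permutation p of 0.33. The 95% Clopper-Pearson intervals, which cover counting error only, reached from 0.221% to 0.272% over both -NAEK libraries and from 0.288% to 0.345% over both +NAEK libraries. In HEK293T cells, where the rule set the level, the shares were 0.247% and 0.263% without NAEK and 0.254% and 0.270% with it. These overlapped. Part of the 1.28-fold difference in transgenic cells lay in the denominator. The members' coding reads made up 2.79% of all coding reads without NAEK and 2.63% with it. Scaled to all reads of the library instead, the members' first extended reads differed 1.21-fold, without overlap (n = 2; exact permutation p = 0.33).

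The corresponding difference in protein-coding transcripts was larger. Their share went from 0.162% ± 0.00120 to 0.380% ± 0.00494 in transgenic cells (n = 2), a 2.35-fold difference. Members had held 1.52 ± 0.0870 times the protein-coding share without NAEK and 0.830 ± 0.0255 times with NAEK (n = 2; exact permutation p = 0.33), with no overlap between the groups. In HEK293T cells the same ratio was 1.54 without and 1.59 with NAEK, and the groups overlapped. The members' difference of 0.0694 percentage points shrank but kept its direction when small sets were left out. Leaving out the 10 members that had the most extended reads gave 0.0678. Dropping the 5 members with the highest coding density gave 0.0613. Dropping the 10 opened members, which were picked on the same change, gave 0.0570. Members with any first extended read did not become more numerous in the transgenic line. Their count averaged 291.5 ± 6.36 in the -NAEK libraries and 288.5 ± 9.19 in the +NAEK libraries (n = 2), with overlap.

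The 10 opened members were a thin set. Together they held 119 first extended reads in the -NAEK libraries and 183 in the +NAEK libraries of the transgenic line, and 5 of the 10 had under 10 reads over those 4 libraries. All 10 were far enough apart in coding reads or length to count as separate groups.

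The widest opening was in ENST00000545453, with a coding length of 2391 nt and a first extended length of 42 nt. It had 0 and 1 extended reads in the transgenic -NAEK libraries and 6 and 4 in the +NAEK libraries, against 0, 0, 1 and 0 in HEK293T cells. Its extended density stood at 0% and 9.80% of coding without NAEK and at 57.3% and 64.3% with NAEK, so the +NAEK libraries were far above all others. The log2 change of extended RPKM was 2.54 (SE 0.554), which missed the threshold in limma (adjusted p = 0.0842), while coding log2 changed by only -0.01 (SE 0.152). This transcript reached the minimum of 10 extended reads for the test only through the +NAEK transgenic libraries, so its extended values are a description.

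ENST00000475157, with a first extended length of 126 nt, was the only member past the limma threshold on extended RPKM. It met the minimum of 10 extended reads through the 17 reads of the +NAEK transgenic libraries, with 2 reads in the other 6 libraries, so its values are a description and the call is no independent support. Its extended reads numbered 0 and 1 without NAEK and 7 and 10 with NAEK in transgenic cells, and 0, 1, 0 and 0 in HEK293T cells. That gave 0% and 2.01% of coding density without NAEK against 13.9% and 22.1% with it. The log2 difference was 2.20 (SE 0.388; limma adjusted p = 0.0429). Among 16 alternative settings, 3 kept this call, with limma adjusted p from 0.0307 to 0.307, and its coding log2 change was 0.32 (limma adjusted p = 0.925).

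The other 8 opened members had first extended regions of 33 to 249 nt. Regions of 51, 72, 141, 33, 147 and 69 nt went from 0 or 1 read over both -NAEK libraries to between 1 and 5 reads in each +NAEK library. The region of 249 nt had 11 reads in each -NAEK library, and 16 and 11 in the +NAEK libraries. In the region of 144 nt the extended reads numbered 51 and 43 in the -NAEK libraries and 49 and 40 in the +NAEK libraries, and its ratio passed from 7.85% and 6.95% to 10.1% and 11.1% as its coding reads stood at 1245 and 1186 without NAEK and at 930 and 693 with it. For the region of 249 nt, too, coding reads were fewer with NAEK, at 79 and 69 against 122 and 124.

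The 4 closed members rested on even fewer reads, 14 without NAEK and 4 with it. Of these, 3 had exactly 1 extended read in each -NAEK library and none in either +NAEK library (regions of 33, 33 and 18 nt).

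**Figure D2:**
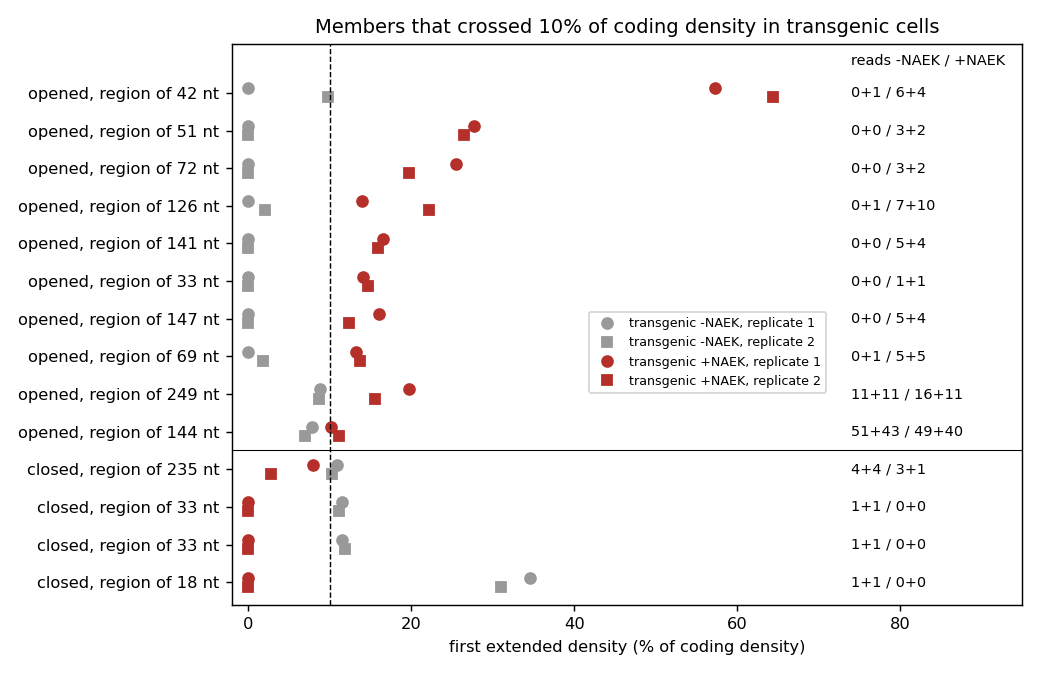
First extended density as a percent of coding density in the 4 transgenic libraries for the 10 opened and 4 closed members, with the reads behind each at the right; the dashed line marks 10%. Most openings rest on 1 to 10 reads per +NAEK library, and the region of 144 nt lies just past the line.

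In the fit across all first extended regions, 157 members had enough reads to be tested, and the 1 called higher with NAEK in transgenic cells was ENST00000475157, which entered the test through those libraries. Over all 7799 regions tested the share called was 1.74%. A test of the ratio of extended to coding density called 0 of the 157 in limma, against 0.0128% of all regions. The unadjusted p was under 0.05 in 18 of the 157 (11.5%), the same share as in all regions (11.5%). The 157 passed partly through reads in the group where they were high, so their count stands for themselves and not for the 1061.

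The second question was whether coding density rose with NAEK, the direction that inhibited decay of these transcripts would give. Inhibition itself was not tested: footprint density is not an mRNA level, and how reads were assigned among isoforms is not known. The members' coding density did not rise beyond that of all regions tested, with or without rescaling. Before rescaling, 553 members (52.1%) had a change above 0 in transgenic cells, against 59.1% of all regions tested. The median change of members in transgenic cells was 0.0131 on the log2(RPKM + 1) scale, against 0.0395 for all 46156 coding regions tested, 0.0398 for all decay-target regions tested and 0.0153 for protein-coding transcripts at 10 RPKM or more. Centring each library on its median moved these to -0.0524 for members, -0.017 for all regions and -0.0503 for protein-coding transcripts at 10 RPKM or more. Without transgenic -NAEK replicate 2 the members' median was -0.0047. In HEK293T cells the members' median was -0.0031 against 0.021 for all regions. Decay-target transcripts with dense extended regions, 1461 in number, had a median of 0.0101 in transgenic cells.

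Members with both +NAEK libraries above both -NAEK libraries in transgenic cells numbered 216 (20.4%), where 23.9% of all regions tested did the same. Those with both below numbered 197 (18.6%), against 13.1% of all regions. All regions include those under 10 RPKM, which members cannot be. Among protein-coding transcripts at 10 RPKM or more, 21.9% lay above and 16.8% below. Among all decay-target transcripts at 10 RPKM or more, members included, the shares were 19.5% and 17.7%. In HEK293T cells 135 members (12.7%) lay above, against 15.7% of all regions, and 126 (11.9%) below, against 10.5%. A change of at least 0.5 on the log2 scale was an increase in 18 members and a decrease in 31 in transgenic cells. The 5 near copies described below are among the 31. Over all 46156 regions the counts were 1292 and 746. They were 59 and 61 over the 12976 protein-coding transcripts at 10 RPKM or more. Over the 1461 decay-target transcripts with dense extended regions they were 33 and 36. In HEK293T cells 13 members rose and 10 fell by as much, against 721 and 649 of all regions. Among those protein-coding transcripts 19 rose and 17 fell. Of the 216 members above in transgenic cells, 29 also lay above in HEK293T cells and 24 lay below. Both counts are near the shares of all members in HEK293T cells, 12.7% above and 11.9% below.

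**Figure D3:**
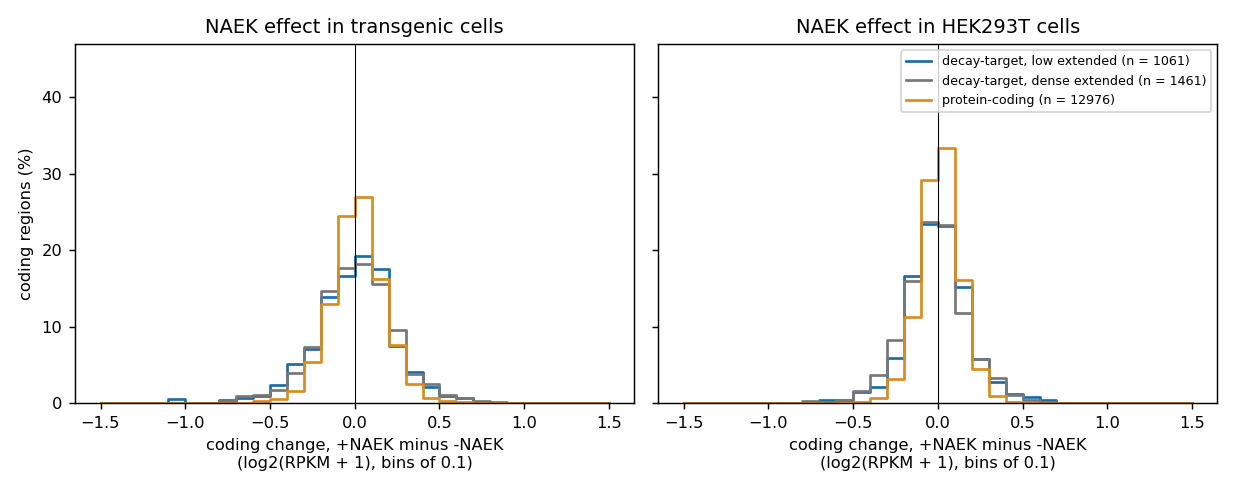
Distribution of the coding change with NAEK, as the difference of mean log2(RPKM + 1), in transgenic cells (left) and HEK293T cells (right) for members, decay-target transcripts with dense extended regions and protein-coding transcripts at 10 RPKM or more. All sets centre near 0, with members at a median of 0.0131 in transgenic cells and a small separate group near -1.1.

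No member passed the limma threshold on coding RPKM for NAEK in transgenic cells, where 0% of all 46156 regions were called. The unadjusted p was under 0.05 in 111 members (10.5%), against 5.93% of all regions. In limma-voom on recovered reads 5 members were called, all lower with NAEK, and 0.0195% of all regions. In HEK293T cells limma called 0 of the members as of all regions (0%). The unadjusted p was under 0.05 in 40 members (3.77%), against 3.02% of all regions. There voom called 0 members and 0.00217% of all regions. The interaction called 0 members (0% of all regions), with 70 (6.60%) at an unadjusted p under 0.05, against 3.82% of all regions. For the interaction voom called 0 members and 0% of all regions. In coding data simulated with 1 fixed spread for all regions, limma recovered 40% of 2-fold and 99% of 8-fold changes, with 17 false calls. That spread was not fitted to these libraries, so the real power may be lower. ENST00000618193 and ENST00000483176, described below, stood at 0.465 and 0.377 of their transgenic -NAEK means with NAEK and were not called. Shifts of 2-fold or somewhat more in a single member could thus have been missed, as would most smaller ones.

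The widest rises were in ENST00000564974 and ENST00000510395, both with no first extended read in any library. ENST00000564974 stood at 45.7 and 45.9 RPKM without NAEK and at 67.2 and 97.1 with NAEK in transgenic cells, and at 53.0 and 65.6 without and 54.5 and 74.9 with NAEK in HEK293T cells. Only the transgenic groups were apart, by 0.80 on the log2 scale (SE 0.206; limma adjusted p = 0.697). ENST00000510395 stood at 9.38 and 10.1 RPKM without NAEK and at 15.1 and 17.2 with NAEK in transgenic cells, a log2 difference of 0.67 (SE 0.153; limma adjusted p = 0.697) from 22 to 35 reads per library.

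The widest fall by size was in ENST00000483176, whose coding length is 73 nt. It went from 18.1 and 14.9 RPKM to 7.16 and 5.30 with NAEK in transgenic cells, on 23, 20, 9 and 5 reads, while the HEK293T libraries lay between 13.3 and 16.3 RPKM. The log2 difference of -1.28 (SE 0.178) did not pass in limma (adjusted p = 0.390).

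The 5 members with the highest coding density, with means from 1239 to 1294 RPKM, stood apart from the rest. All 5 had a coding length of 312 nt and a first extended length of 69 nt, and they fell into 2 groups by sampling noise, so they count as near copies. In ENST00000618193 coding density was 1421 and 1551 RPKM without NAEK and 621 and 761 with NAEK in transgenic cells, and 1429 and 1739 without and 1266 and 1455 with NAEK in HEK293T cells. The transgenic +NAEK libraries were below every other library. Summed over the 5, density was 7387 ± 398 RPKM without and 3492 ± 470 with NAEK in transgenic cells (n = 2), a ratio of 0.473 with an exact permutation p of 0.33, and 7789 ± 1079 against 6706 ± 714 in HEK293T cells (p = 0.667 by the same exact test).

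For ENST00000618193 the log2 difference was -1.11 (SE 0.140), which did not pass in limma (adjusted p = 0.364). It passed with the replicate number as a block (limma adjusted p = 0.0122) and in voom (adjusted p = 0.000129), as did the other 4. The line by NAEK interaction of -0.89 did not pass (limma adjusted p = 1.0). Reads from near-identical copies cannot be assigned to 1 transcript with certainty, so the 5 values may describe 1 shared pool of footprints.

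**Figure D4:**
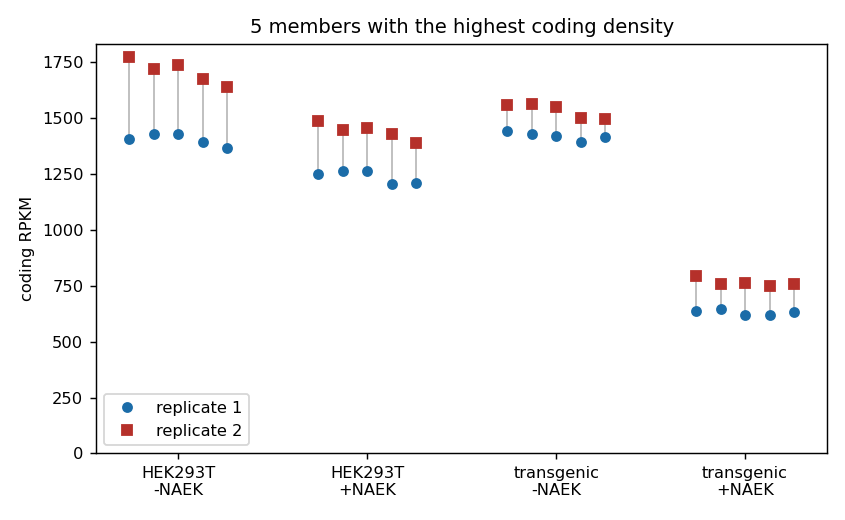
Coding RPKM of the 5 members with the highest mean density, side by side within each group, with the 2 replicates as circles and squares. All 5 lie between 621 and 794 RPKM in the transgenic +NAEK libraries and at 1208 RPKM or more in the others.

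These copies also carried most of the members' change in coding reads. Members held 2.79% ± 0.0621 of all coding reads without NAEK and 2.63% ± 0.0489 with it in transgenic cells (n = 2; exact permutation p = 0.33), and 2.73% and 2.63% in HEK293T cells, where the groups overlapped. Without the 5 copies the transgenic shares were 2.54% ± 0.0485 and 2.51% ± 0.0325, and they overlapped (exact permutation p = 0.667). All 17577 decay-target transcripts together held 6.48% ± 0.00581 without and 6.41% ± 0.0848 with NAEK in transgenic cells (exact permutation p = 0.33, n = 2).

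Coding density of the opened members is a description only, because a lower coding density with NAEK itself raises the ratio that defines an opening. Their coding log2 changes in transgenic cells ran from -0.46 to 0.32 with a median of -0.02, and the +NAEK libraries lay above the -NAEK libraries in 2 of the 10 and below in 2.

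Between lines, no member passed in limma. Without NAEK, 135 members (12.7%) had an unadjusted p under 0.05, against 9.84% of all regions, and limma called 0.0065% of all regions. There voom called 4 members and 0.739% of all regions. With NAEK, 287 members (27.1%) had an unadjusted p under 0.05, against 15.6% of all regions. Here limma called 0.013% of all regions, and the smallest limma adjusted p of a member was 0.0691. Also with NAEK, voom called 31 members, 16 higher and 15 lower in transgenic cells, and 1.98% of all regions. This comparison shares the +NAEK libraries with the one above, and the 5 near copies are among the 15.

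Second extended regions, listed after the first and used neither by the rule nor in the counts above, were far denser. They held 5.28% to 6.43% of the members' coding reads over the 8 libraries, against 0.235% to 0.325% for the first. In protein-coding transcripts chosen by the same rules the second extended share averaged 0.0970% without and 0.1004% with NAEK in transgenic cells. In 285 members (26.9%) the second extended density was at least 10% of coding in HEK293T cells, against 2.38% of the protein-coding transcripts and 77.0% of the decay-target transcripts with dense first extended regions. Of those 285, 129 had no first extended read in any library, so a low first extended density did not mean few footprints downstream. How reads were assigned among isoforms is not known. Whether these footprints came from ribosomes that passed the stop codon was not tested.

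NAEK did not move these regions beyond the spread. The share went from 5.48% ± 0.277 to 5.72% ± 0.193 in transgenic cells (n = 2; exact permutation p = 0.667) and from 5.95% ± 0.415 to 6.17% ± 0.371 in HEK293T cells (exact permutation p = 0.667), with overlap in both. In the fit, 0 of 248 members tested passed in limma, against 0.0618% of all second extended regions. The unadjusted p was under 0.05 in 14 members (5.65%), against 6.92% of all these regions. From voom came 0 calls in members and 0% in all these regions. The reads were concentrated: 10 members held 46.2% of them.

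ENST00000460265, the member with the most, had 24119 second extended reads over 831 nt and none in a first extended region. Its second extended density was 253 ± 39.5 RPKM and its coding density 84.6 ± 1.96 RPKM in HEK293T cells without NAEK (n = 2). In transgenic cells the second extended density was 168 ± 12.3 RPKM without and 153 ± 11.7 RPKM with NAEK (log2 difference -0.14, SE 0.201; limma adjusted p = 0.936). Footprints counted in its second extended region were thus denser than those in its annotated coding region in every group.

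**Figure D5:**
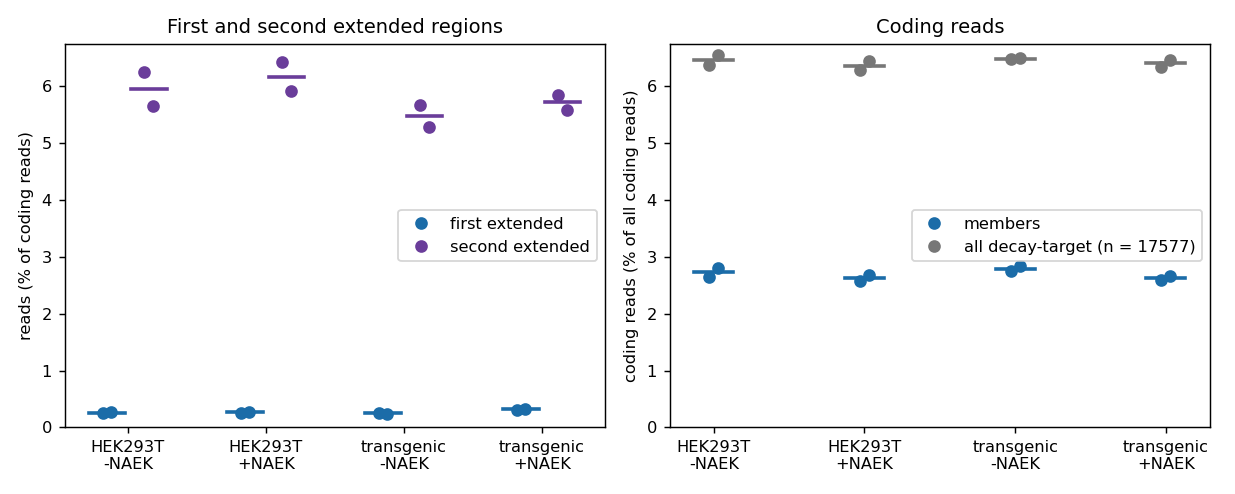
Left, first and second extended reads of the members as a percent of their coding reads; right, coding reads of the members and of all decay-target transcripts as a percent of all coding reads. Points are libraries and bars group means; second extended shares lie between 5.28% and 6.43%, and members hold 2.57% to 2.84% of all coding reads.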

How the data were processed

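RPKM values for the coding, first extended and second extended regions of each transcript were deposited by the authors. Reads were handled with Bowtie 1.2.2 and build hg38, per the submitters' processing notes; for the annotation, the assignment of reads among isoforms and strand, the sources used here give nothing. Because each value is a whole number of reads times a step set by region length and depth, reads and lengths were recovered, with 100% of values above 0 whole within 0.01 reads. In thin regions a recovered length can be a fraction of the true one; on simulated data, 97.2% of the coding regions and 89.2% of those in the first extended class came back with every read exact. The members and lists were chosen with earlier results of these data known. log2(RPKM + 1) values of all 8 libraries, computed from the deposited RPKM, were fitted by group in limma 3.58.1 (R 4.3.3), with a variance trend and Benjamini-Hochberg adjustment at 0.05 over all regions tested. Fold changes on this scale understate those of low regions. Coding regions needed a mean of 1 RPKM, and extended regions a mean of 50 coding reads and 10 extended reads in all. In data simulated with the same fixed spread, limma called 1% of 2-fold and 39% of 8-fold changes over 7799 first extended regions, with 7 false calls. Single values were tested over libraries by exact permutation, two-sided, (scipy 1.17.1), and counting intervals are 95% Clopper-Pearson. PCR reads without molecular identifiers are not independent, so intervals cover counting error only. Transcripts named are those opened or closed by the largest difference, those with the widest coding rise and fall, those past the threshold and those highest in coding density, at most 2 in each direction because no gene names were paired with them; the gene lists planned could not be used. Alternatives were pseudocounts, filters, no variance trend, median centring, only the libraries compared, the replicate block, voom on recovered reads, other thresholds and leaving out each library. voom was scaled by the sum of coding reads; the planned TMM scaling was not run. Replicate differences of the 4 groups correlated at 0.0482 to 0.324 over their 6 pairings, lowest between the transgenic groups and over 0.1 in the other 5. The labels do not say that a number marks a shared batch and each group has only 2 replicates, so the numbers were not taken as pairs.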

Additional observations from a re-analysis of the deposited data

Results flagged for a closer look

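Coding RPKM of ENST00000510395 went in opposite directions with NAEK in the 2 lines. The -NAEK and +NAEK libraries did not overlap in either line. This transcript is among the 24 members that lay above in transgenic cells and below in HEK293T cells. Its mean was 6.40 RPKM higher with NAEK in transgenic cells, with both +NAEK libraries above both -NAEK libraries, and 1.95 RPKM lower in HEK293T cells, where the libraries stood at 12.4 and 9.24 RPKM without and 8.64 and 9.15 RPKM with NAEK. These values rest on 20 to 35 reads per library, and the interaction of 0.92 on the log2 scale did not pass in limma (adjusted p = 1.0).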

How the results depend on the processing

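The number of opened members followed the thresholds: it was 10 as reported, 6 for members under 5% in HEK293T cells, 19 for those under 20%, 1 for those with at least 50 coding RPKM, 21 (10 closed) with opening set at 5%, 4 (1 closed) at 20%, and 2 (0 closed) with at least 20 extended reads. Leaving out a transgenic library gave 14 to 50 opened members, with 50 (7 closed) without transgenic +NAEK replicate 1 and 45 (13 closed) without transgenic +NAEK replicate 2, since a lone library then decides the call. The first extended share differed by 0.0563 to 0.106 percentage points over 12 alternatives, always higher with NAEK in transgenic cells; 4 of these alternatives were chosen after seeing the data. The single first extended call was lost (0 members) with a pseudocount of 0.1, no filter, a stricter filter, no variance trend, only the 4 libraries compared, the replicate block and every left-out library (0 to 0), and became 3 with a pseudocount of 5 and 2 in voom, whose scaling was chosen after seeing the data. For coding RPKM with NAEK in transgenic cells, the replicate block and voom each called 5 members, the 5 near copies. Of all regions they called 0.0152% and 0.0195%. Between lines with NAEK the counts were 12 under the stricter filter, 15 under the replicate block and 31 in voom, and without NAEK 4 in voom. The replicate block changed no other call. Second extended calls ran from 0 to 1 with a library left out, the 1 without transgenic -NAEK replicate 2. Median centring moved the members' coding change from 0.0131 to -0.0524 and that of all regions from 0.0395 to -0.017. For protein-coding transcripts at 10 RPKM or more it went from 0.0153 to -0.0503. The sign of the members' change thus depends on the scaling. Under both scalings it lay below all regions, which include thinner ones, and close to the protein-coding transcripts at 10 RPKM or more. Of the alternatives to single named transcripts, 84 kept their side of the threshold, 13 lost it and 3 gained it. Depth and unknown lengths limit the extended counts. A density of 10% of coding was at least 3 reads in each transgenic library for 256 of the 1061 members, and 446 members had no recoverable first extended length.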
